A study of Mus musculus with 18 samples.

Results

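The comparison described here set mice treated with the tricyclic antidepressant desipramine against mice given saline, all with a nerve injury and all labelled wild type. It covered 14132 of the 37980 genes in the deposited table: those that Cuffdiff tested and whose level was at least 1 FPKM (fragments per kilobase of transcript, scaled to the fragments mapped in the library) in both groups. The series held 18 RNA-seq samples of mouse nucleus accumbens in 6 groups of 3, designed around the gene Rgs9, pain after nerve injury and an antidepressant. The desipramine group was labelled Rgs9-2WT on a C57BL/6 background, had spared nerve injury (SNI, a surgical model of neuropathic pain) and received desipramine intraperitoneally at 15 mg/kg, 2 times a day, chronically. The saline group carried the same genotype label, strain and injury and received saline 2 times a day. A second pair of injured groups, desipramine and saline, was labelled Rgs9-2KO, and a naive group labelled wild type had no injury. The knockout pair had the same dose and frequency: desipramine at 15 mg/kg or saline, each 2 times a day. The labels give neither the age of the mice nor how many days they were treated.

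Desipramine blocks the noradrenaline transporter, and tricyclic drugs also bind muscarinic, histamine and serotonin receptors. They are used against neuropathic pain, where relief builds up over chronic treatment. The nucleus accumbens is the ventral part of the striatum and handles reward and motivation. Most of its cells are GABAergic medium spiny neurons of the direct and indirect pathways, and it receives glutamatergic axons from cortex, hippocampus, amygdala and thalamus.

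Each group had a single FPKM value per gene, pooled by the authors over its 3 samples, so the spread between animals could not be seen and the number of reads behind a value is unknown. The titles put each group in a lane of its own, with 6 lanes and 0 of them shared, and an effect of the lane cannot be told apart from one of the group. Defining markers of the labelled tissue were present. Penk, the enkephalin precursor of indirect pathway neurons, stood at 1042 FPKM in the desipramine group and 992 FPKM in the saline group. Drd1a, the dopamine receptor of the direct pathway, stood at 44.5 FPKM in the desipramine group and 48.7 FPKM in the saline group. Rgs9, whose product shortens dopamine and opioid receptor signals in striatal neurons, was at 115 FPKM in the desipramine group and 105 FPKM in the saline group. It was higher in both injured groups labelled knockout, at 166 FPKM with desipramine and 177 FPKM with saline, which goes against that label, although a value per gene does not separate transcripts. The groups are therefore named below by their labels. In bulk tissue, fewer cells of a type and less RNA per cell cannot be told apart.

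Desipramine left most of the transcriptome near its saline level. The median log2 ratio of desipramine over saline was 0.004, with quartiles of -0.07 and 0.08, and 98.8% of the 14132 genes lay within 1.5-fold. The highest levels were those of mitochondrial transcripts, with mt-Nd1 at 8175 FPKM in the desipramine group and 8857 FPKM in the saline group. A positive log2 ratio was found in 7242 of the 14132 genes. Beyond 2-fold lay 66 genes, 45 with the higher level in the desipramine group and 21 with the higher level in the saline group. A gene is called here where the q-value in the authors' deposited table, from Cuffdiff with a Benjamini-Hochberg adjustment over the 17316 genes tested, was at or below 0.05. By that rule 23 genes were called, or 0.163% of the 14132, of which 19 were higher (0.134%) and 4 lower (0.0283%) with desipramine. Of these, 20 had the lowest p that occurred, 5.00e-05, and a q of 0.0279 in the authors' deposited table, while Nr4a1, Rprm and Slc17a7 had a q of 0.0495. Over all genes tested, at any level, the share called was 0.202%. Without adjustment, 209 genes (1.48%) had a deposited p under 0.05, 172 of them higher (1.22%) and 37 lower (0.262%).

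**Figure D1:**
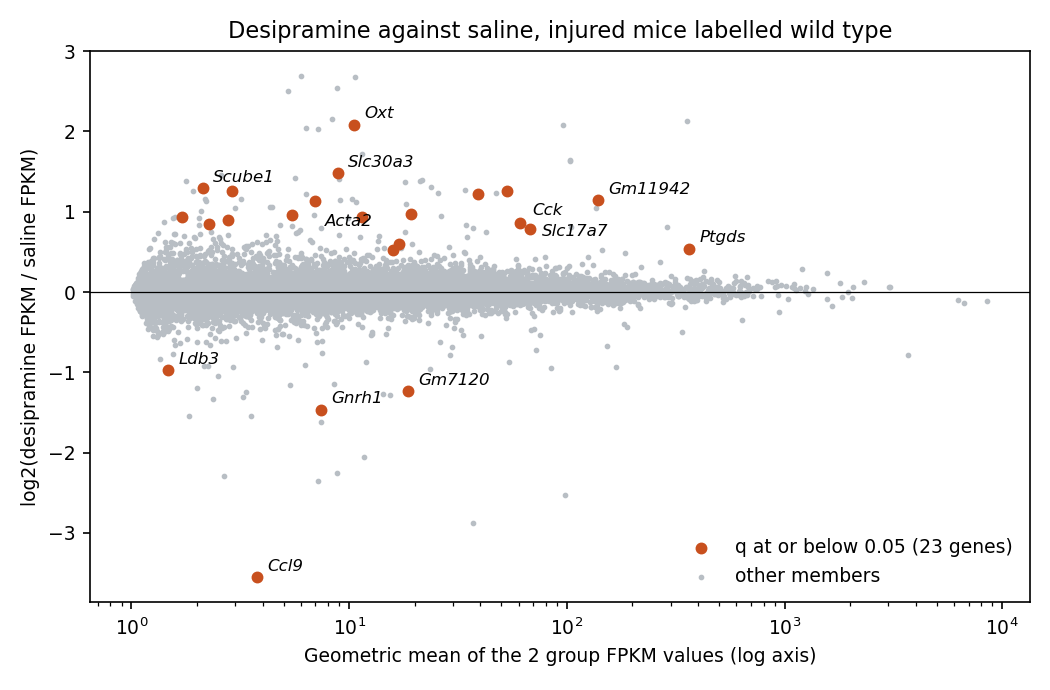
Each point is 1 of 14132 genes; the x axis is the geometric mean of its FPKM values in the desipramine and saline groups (log axis) and the y axis is the log2 ratio of desipramine over saline in injured mice labelled wild type. The 23 genes with a deposited q at or below 0.05 are coloured and lie at both low and high levels, while several genes with larger ratios, such as that at -2.88 (Ttr), are grey.

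Of the 23 called genes 8 were on a list. The lists were chosen with earlier results of these data known, so their counts of calls are described and not tested. Higher with desipramine were the vesicular transporters Slc17a7 and Slc30a3, the peptide precursors Oxt, Cck and Adcyap1, the orphan nuclear receptors Nr2f1, Nr2f2 and Nr4a1, the contractile proteins Acta2 and Myh11, and Nrn1, Rtn4r, Scube1, Rprm and Ptgds. Also higher were 4 genes with pseudogene, clone or predicted names. Lower were the hormone precursor Gnrh1, the chemokine Ccl9, the muscle protein gene Ldb3 and the predicted gene Gm7120. The smallest log2 ratio among the 23 was 0.53 in size, and 11 of the 23 were beyond 2-fold. The error given after each log2 ratio is the standard error recovered from the deposited test statistic. The deposited p of Cuffdiff and that statistic do not always give the same answer: with a normal p of the statistic, adjusted over all genes tested, 12 of the 19 called genes with a value below were not called, and that adjusted p is given with each.

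**Figure D2:**
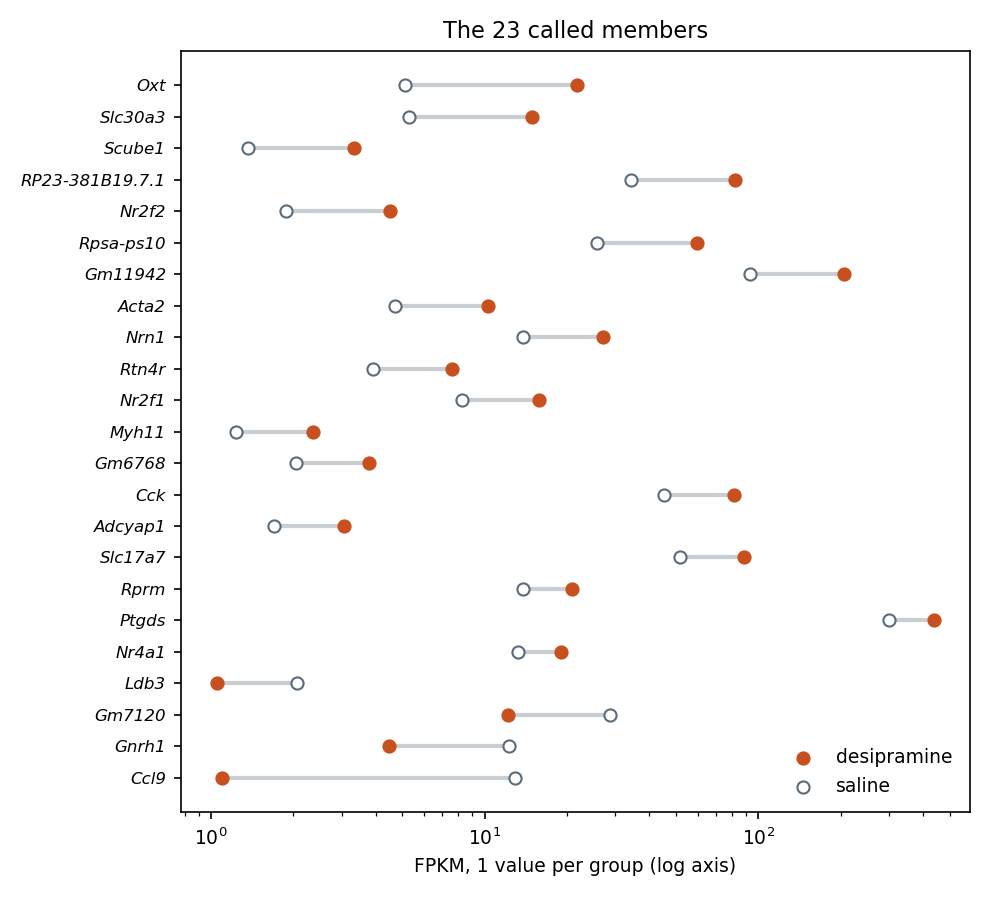
FPKM of the 23 called genes on a log axis, 1 value per group: filled points are the desipramine group and open points the saline group of injured mice labelled wild type. Genes run by log2 ratio, with Oxt at 21.8 against 5.13 FPKM at the top and Ccl9 at 1.10 against 12.9 FPKM at the bottom.

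Glutamatergic markers were among the called genes. Slc17a7 (VGLUT1), which loads glutamate into vesicles of cortical, hippocampal and amygdalar axons, had 88.5 FPKM in the desipramine group and 51.5 FPKM in the saline group, a log2 ratio of 0.78 ± 0.28. Slc30a3 (ZnT3), which loads zinc into vesicles of the same class of neuron, had 14.8 FPKM in the desipramine group and 5.30 FPKM in the saline group, a log2 ratio of 1.49 ± 0.30. Both transcripts are mainly made by neurons other than medium spiny neurons. Of 12 genes that mark cortical excitatory neurons, 10 were measured above the minimum, and 1 of these (Slc17a7) was called. All 10 had a positive ratio, against 7242 of all 14132 genes. Their median was 0.26, against 0.004 for all genes. An unadjusted p under 0.05 with the higher level in the desipramine group was reached by 1.22% of all genes. It was reached by 4 of the 10: Slc17a7 and the transcription factors Neurod2, Tbr1 and Emx1. Tbr1 stood at 7.06 FPKM in the desipramine group and 5.24 FPKM in the saline group. The levels of all 12 genes summed to 190 FPKM in the desipramine group and 137 FPKM in the saline group, and none was at 0. With the normal p of the statistic in place of the Cuffdiff p, Slc30a3 was called at an adjusted p of 3.12e-04 and Slc17a7 was not (adjusted p = 1). The part of cortical tissue in the Slc17a7 and Slc30a3 results, and in those of Cck, Nrn1 and Rtn4r given below, was not tested.

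Among the called genes on none of the lists were Nrn1, Rtn4r, Scube1 and Rprm. Nrn1 (neuritin), a membrane-anchored protein that promotes neurite outgrowth and is induced by activity, had 27.0 FPKM in the desipramine group and 13.8 FPKM in the saline group, a log2 ratio of 0.97 ± 0.25. Rtn4r, the Nogo receptor that restrains axon growth, had 7.62 FPKM in the desipramine group and 3.91 FPKM in the saline group, a log2 ratio of 0.96 ± 0.30. Scube1, which encodes a secreted and cell-surface protein with EGF-like repeats, had 3.33 FPKM in the desipramine group and 1.36 FPKM in the saline group, a log2 ratio of 1.29 ± 0.37. In that order the 3 were 1.96, 1.95 and 2.45 times their saline level. Rprm (Reprimo), a p53-induced inhibitor of the cell cycle, had 20.9 FPKM in the desipramine group and 13.8 FPKM in the saline group, a log2 ratio of 0.60 ± 0.22. With the normal p of the Cuffdiff statistic Nrn1 was called at an adjusted p of 0.0355, but Scube1 (adjusted p = 0.138), Rtn4r (adjusted p = 0.289) and Rprm (adjusted p = 1) were not. Nrn1 had the lowest statistic, in size, of the called genes that the normal p kept. It was not kept when that alternative was limited to genes with a recovered standard error. Among neurotrophins and their receptors, 0 of 8 genes were called and the median log2 ratio was -0.09. Of the 8, 4 had a positive ratio and 4 a negative one. An unadjusted Cuffdiff p under 0.05 was reached by 2 higher and 2 lower genes, against 1.22% and 0.262% of all genes. Ngfr, a neurotrophin receptor, was lower, with 3.48 FPKM in the desipramine group and 4.72 FPKM in the saline group. Its q in the authors' deposited table was 0.99995. Bdnf, a trophic factor of the striatum carried there by cortical axons, had 1.73 FPKM in the desipramine group and 1.20 FPKM in the saline group, with q = 0.99995 in the authors' deposited table. Vgf, a secreted protein induced by neurotrophins, had 92.2 FPKM in the desipramine group and 68.4 FPKM in the saline group, and its q in the authors' deposited table was 0.0962.

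Peptides gave the largest number of calls of any list, 4 of 16 measured genes outside the opioids, against 0.163% of all genes. This list, like the others, was chosen with earlier results of these data known, so its rank is not independent of them. Oxt, the oxytocin precursor, had 21.8 FPKM in the desipramine group and 5.13 FPKM in the saline group, a log2 ratio of 2.09 ± 0.30. Cck, the cholecystokinin precursor, had 81.5 FPKM in the desipramine group and 45.0 FPKM in the saline group, a log2 ratio of 0.86 ± 0.30. Adcyap1, the precursor of PACAP, a peptide that raises cAMP, had 3.06 FPKM in the desipramine group and 1.70 FPKM in the saline group, a log2 ratio of 0.84 ± 0.32. Those 3 were higher with desipramine. Gnrh1, the precursor of gonadotropin-releasing hormone, was lower, with 4.46 FPKM in the desipramine group and 12.3 FPKM in the saline group and a log2 ratio of -1.46 ± 0.28. With the normal p of the Cuffdiff statistic Oxt and Gnrh1 were called, at adjusted p of 2.44e-09 and 5.84e-05, but Cck (adjusted p = 0.786) and Adcyap1 (adjusted p = 1) were not. The list's median was 0.19, against 0.004 for all genes. An unadjusted p under 0.05 with the higher level in the desipramine group was reached by 1.22% of all genes and by 7 of the list's 16. Among these, Sst, the somatostatin precursor of striatal interneurons, had 467 FPKM in the desipramine group and 388 FPKM in the saline group and was not called. Avp, the vasopressin precursor, lies beside Oxt on chromosome 2 at 130406355-130408290 (Oxt 130401908-130402790, both in mm9), 3565 bases apart. It stood at 24.7 FPKM in the desipramine group and 0.801 FPKM in the saline group, below the minimum in the second, with q = 0.0279 in the authors' deposited table. Oxt and Avp are made by magnocellular neurons of the hypothalamus. Of 16 markers of septal, pallidal, thalamic and hypothalamic neurons, 12 were measured above the minimum, 0 were called, the median was -0.21 and the sum over all 16 was 131 FPKM in the desipramine group and 144 FPKM in the saline group. None of the 16 was at 0, and the part of neighbouring regions in the peptide results was not tested.

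Opioid peptides and their receptors gave 0 calls among 8 genes, with a median log2 ratio of 0.07. Pomc stood at 2.35 FPKM in the desipramine group and 2.07 FPKM in the saline group. Oprk1, the kappa receptor, stood at 10.1 FPKM in the desipramine group and 11.0 FPKM in the saline group.

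Transcription factors among the called genes were all receptors of the nuclear receptor family. Nr2f1 (COUP-TFI) had 15.8 FPKM in the desipramine group and 8.29 FPKM in the saline group, a log2 ratio of 0.94 ± 0.29. Its paralogue Nr2f2 (COUP-TFII) had 4.50 FPKM in the desipramine group and 1.88 FPKM in the saline group, a log2 ratio of 1.26 ± 0.37. Both are orphan receptors that pattern the forebrain and bind the motif AGGTCA. Nr4a1 (Nur77), an orphan receptor whose gene is switched on within minutes by cAMP, calcium and dopamine signals, had 19.1 FPKM in the desipramine group and 13.2 FPKM in the saline group, a log2 ratio of 0.53 ± 0.21. None of the 3 was called with the normal p of the Cuffdiff statistic (adjusted p = 0.260 for Nr2f1, 0.196 for Nr2f2 and 1 for Nr4a1). Nr4a1 was the only called gene among 30 measured immediate-early genes, whose median was 0.10. Higher with an unadjusted p under 0.05 were 4 of the 30, Nr4a1, Nr4a3, Fosl2 and Dusp4, and lower was 1, Fos. Over all 14132 genes those shares were 1.22% higher and 0.262% lower. Nr4a3, the close relative of Nr4a1, stood at 2.97 FPKM in the desipramine group and 2.06 FPKM in the saline group, and Fos at 4.71 FPKM in the desipramine group and 7.13 FPKM in the saline group. Egr1, Arc and Npas4, other activity-induced genes, had log2 ratios of 0.11, -0.11 and -0.09 in that order.

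Promoters of 4 called genes are shown because the cAMP-responsive genes Nr4a1, Cck and Adcyap1 and the peptide gene Oxt are known to be driven through short elements near their start. Each runs from 250 bases before to 50 after the RefSeq start in GRCm38.p6, on the gene's strand: Nr4a1 at chr15:101266596-101266895 (plus strand), Cck at chr9:121495645-121495944 (minus strand), Adcyap1 at chr17:93198767-93199066 (plus strand, the upstream of its 2 starts in the table) and Oxt at chr2:130575919-130576218 (plus strand). In the first 3, capitals mark CGTCA, the core of the cAMP response element (CRE), or its reverse complement TGACG; in Oxt they mark TGACCT or its reverse complement AGGTCA.
Nr4a1: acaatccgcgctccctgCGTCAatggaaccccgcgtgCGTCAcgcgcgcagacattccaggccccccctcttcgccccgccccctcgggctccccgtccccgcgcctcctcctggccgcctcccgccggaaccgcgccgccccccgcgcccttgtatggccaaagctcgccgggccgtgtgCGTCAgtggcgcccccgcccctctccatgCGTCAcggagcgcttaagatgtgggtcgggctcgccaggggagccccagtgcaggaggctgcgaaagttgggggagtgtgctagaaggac
Cck: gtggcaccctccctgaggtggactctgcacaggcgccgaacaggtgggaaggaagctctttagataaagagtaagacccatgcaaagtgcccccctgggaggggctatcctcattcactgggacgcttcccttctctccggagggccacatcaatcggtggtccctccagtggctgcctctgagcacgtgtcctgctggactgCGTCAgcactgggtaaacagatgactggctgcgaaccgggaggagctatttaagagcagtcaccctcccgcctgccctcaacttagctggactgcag
Adcyap1: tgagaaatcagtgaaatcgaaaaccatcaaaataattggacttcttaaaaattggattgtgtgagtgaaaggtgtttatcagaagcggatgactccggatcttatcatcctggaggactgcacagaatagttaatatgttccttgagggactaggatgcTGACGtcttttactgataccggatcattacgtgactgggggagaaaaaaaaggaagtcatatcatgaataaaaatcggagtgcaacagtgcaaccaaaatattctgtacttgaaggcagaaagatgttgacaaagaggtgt
Oxt: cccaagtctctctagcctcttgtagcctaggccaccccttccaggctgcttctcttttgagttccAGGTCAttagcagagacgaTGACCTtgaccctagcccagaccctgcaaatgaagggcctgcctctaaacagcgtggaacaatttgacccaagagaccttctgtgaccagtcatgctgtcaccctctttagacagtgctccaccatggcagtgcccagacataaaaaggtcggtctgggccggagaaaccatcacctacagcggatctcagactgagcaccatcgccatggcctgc

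The Nr4a1 promoter held 4 matches to CGTCA, the Cck and Adcyap1 promoters 1 each, and the Oxt promoter 2 matches to TGACCT. The motifs were chosen after the values were seen and were searched on both strands. CGTCA was present in 20.9% of all 27025 mouse promoters of that length and in 31.7% of the 9607 that belong to genes described here. It was present in 4 of the 15 called genes with a promoter in the table (Adcyap1, Cck, Nr4a1 and Rtn4r), a share no larger than that 31.7%. The palindrome TGACGTCA, which contains CGTCA on both strands, was in 1.85% of all promoters, 3.28% of the 9607 and 0 of the 15. TGACCT was in 16% of all promoters, 11.4% of the 9607 and 1 of the 15, Oxt. The CArG box of smooth muscle genes was in 1.59% of all promoters, 1.29% of the 9607 and 1 of the 15, Ldb3.

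Contractile genes of vessel walls formed another called pair. Acta2, smooth muscle actin, had 10.3 FPKM in the desipramine group and 4.70 FPKM in the saline group, a log2 ratio of 1.13 ± 0.27. Myh11, the smooth muscle myosin heavy chain, had 2.36 FPKM in the desipramine group and 1.24 FPKM in the saline group, a log2 ratio of 0.93 ± 0.32. With the normal p of the Cuffdiff statistic Acta2 was called at an adjusted p of 0.0103 and Myh11 was not (adjusted p = 0.705). Tagln, another smooth muscle protein, had 9.84 FPKM in the desipramine group and 5.64 FPKM in the saline group, but with a standard error of 1.17 on a log2 ratio of 0.80 it was not called. The pericyte genes Pdgfrb and Rgs5 had log2 ratios of 0.01 and 0.02. Of the 10 pericyte and smooth muscle genes 7 were measured above the minimum, and 2 were called, against 0.163% of all genes. All 7 had a positive ratio and the median was 0.18. Endothelial genes gave 0 calls of 10 and a median of 0.14, with Cldn5, a tight junction protein, at 21.0 FPKM in the desipramine group and 17.0 FPKM in the saline group.

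Ptgds, the enzyme that makes prostaglandin D2 and a secreted carrier protein of meninges, choroid plexus and oligodendrocytes, had the highest levels of the called genes, 438 FPKM in the desipramine group and 301 FPKM in the saline group, a log2 ratio of 0.54 ± 0.24. It was not called with the normal p of the Cuffdiff statistic (adjusted p = 1). Markers of tissue at the border of the brain are given beside it. Of 12 meningeal and fibroblast genes, 5 were measured above the minimum, all 5 with a positive ratio and a median of 0.36, and 0 were called. Their sum over all 12 was 32.4 FPKM in the desipramine group and 24.8 FPKM in the saline group. Of 14 choroid plexus genes 7 were measured above the minimum, all 7 with a negative ratio and a median of -0.26, and 0 were called. Ttr (transthyretin), the main choroid plexus transcript, had 13.6 FPKM in the desipramine group and 100 FPKM in the saline group, with q = 0.713 in the authors' deposited table. Folr1, a choroid plexus folate receptor, had 1.49 FPKM in the desipramine group and 3.74 FPKM in the saline group, with q = 0.201 in the authors' deposited table. The 14 genes summed to 31.1 FPKM in the desipramine group and 124 FPKM in the saline group, and none of either list was at 0. The part of meninges, vessels and choroid plexus in the Ptgds, Acta2 and Myh11 results was not tested.

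The remaining lower genes had little in common. Ccl9, a chemokine that attracts myeloid cells, had 1.10 FPKM in the desipramine group and 12.9 FPKM in the saline group, a log2 ratio of -3.55 ± 0.84. Its level was uneven over the series: 17.9 FPKM in the desipramine group and 1.38 FPKM in the saline group labelled knockout, a log2 ratio of 3.70 ± 3.76 that was not called, and 7.10 FPKM in uninjured, untreated mice labelled wild type. Injured saline over naive under the wild type label gave a log2 ratio of 0.83 ± 12.3, so the errors of Ccl9 also varied widely between comparisons. Microglial genes did not follow Ccl9: 0 of 13 were called and 11 of 13 had a positive ratio, with a median of 0.09. Ldb3, a Z-disc protein of striated muscle, had 1.05 FPKM in the desipramine group and 2.05 FPKM in the saline group, a log2 ratio of -0.97 ± 0.41. With the normal p of the Cuffdiff statistic Ccl9 was called at an adjusted p of 0.00804 and Ldb3 was not (adjusted p = 1). That p of Ccl9 rests on the error of 0.84, the smallest of those given for it.

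The other 5 called genes carry pseudogene, clone or predicted names; the files class Gm11942 and Gm6768 as pseudogenes, RP23-381B19.7.1 as a processed transcript and Rpsa-ps10 and Gm7120 as protein coding. Whether they share reads with similar copies was not tested, and their values are given as uncertain. Gm11942 had 206 FPKM in the desipramine group and 93.1 FPKM in the saline group. Rpsa-ps10, by its name a pseudogene of the ribosomal protein gene Rpsa, had 59.9 FPKM in the desipramine group and 25.7 FPKM in the saline group, and it was called with the normal p of the Cuffdiff statistic as well (adjusted p = 1.12e-05). RP23-381B19.7.1 had 82.3 FPKM in the desipramine group and 34.3 FPKM in the saline group, and Gm6768 had 3.79 FPKM in the desipramine group and 2.04 FPKM in the saline group. Gm7120 was lower, at 12.1 FPKM in the desipramine group and 28.6 FPKM in the saline group. Cytosolic ribosomal protein genes themselves had a median of -0.01, with 0 of 35 called.

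Known targets of desipramine showed no called gene. Slc6a2, the noradrenaline transporter made in brainstem neurons, was not tested by Cuffdiff: it was listed at 0 FPKM in the desipramine group and at 0.0058 FPKM in the saline group. Of 9 measured adrenergic receptor and monoamine-handling genes 0 were called, and their log2 ratios ran from -0.28 (Slc18a2, the vesicular monoamine transporter) to 0.16 (Adra1b), with a median of 0.06. Of 11 serotonin receptor genes 0 were called, with a median of -0.01. Htr1a had the largest ratio among them in size, with 4.37 FPKM in the desipramine group and 6.39 FPKM in the saline group and q = 0.147 in the authors' deposited table. Muscarinic and histamine receptors gave 0 calls of 8 and a median of 0.12. Chrm2 stood at 3.51 FPKM in the desipramine group and 4.57 FPKM in the saline group, and Chrm3 at 6.03 FPKM in the desipramine group and 4.63 FPKM in the saline group.

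Lists of signalling and striatal identity genes had medians close to 0. The cAMP and CREB list gave 0 calls of 29 with a median of 0.02, RGS proteins 0 of 18 with a median of 0.02, histone deacetylases 0 of 14 with a median of 0.03, and glutamate receptors and scaffolds 0 of 24 with a median of 0.09. Grm2, a presynaptic glutamate receptor, had the largest ratio of that last list, with 3.08 FPKM in the desipramine group and 2.18 FPKM in the saline group, and was not called. GABA-A receptor subunits gave 0 calls of 14, but 12 of the 14 had a negative ratio, with a median of -0.06. Medium spiny neuron genes gave 0 calls of 17 with a median of -0.04, direct pathway genes 0 of 8 with a median of 0.06, and indirect pathway genes 0 of 7 with a median of 0.01. Of the 17 medium spiny neuron genes 12 had a negative ratio. The largest in size was that of Meis2, with 162 FPKM in the desipramine group and 219 FPKM in the saline group. Its log2 ratio of -0.43 had no recovered standard error. Drd2, the indirect pathway's dopamine receptor, stood at 53.2 FPKM in the desipramine group and 52.5 FPKM in the saline group. Of 11 striatal interneuron genes Cck alone was called, and which cells its transcript came from was not tested. Chat and Pvalb had log2 ratios of -0.03 and 0.04.

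Stress, lipid and clock genes gave no call either. Glucocorticoid response genes had 0 calls of 17 and a median of -0.04, and circadian clock genes 0 of 18 and a median of -0.04. Cholesterol synthesis gave 0 of 21 and a median of 0.02, lysosomal genes 0 of 20 and a median of 0.02, unfolded protein response genes 0 of 16 and a median of -0.03, heat shock genes 0 of 13 and a median of 0.01, and nuclear respiratory chain genes 0 of 29 and a median of 0.02. Cationic tricyclic drugs collect in lysosomes, and Lamp2, a lysosomal membrane protein, stood at 32.1 FPKM in the desipramine group and 34.3 FPKM in the saline group.

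Glia were described by their markers. Oligodendrocyte genes gave 0 calls of 13, and 11 of the 13 had a negative ratio, with a median of -0.21. Mog, a myelin surface protein, had 46.9 FPKM in the desipramine group and 58.7 FPKM in the saline group. Mobp, another myelin protein, had 566 FPKM in the desipramine group and 722 FPKM in the saline group. The lineage regulators Sox10 and Olig1 had log2 ratios of 0.07 and 0.05. Astrocyte genes gave 0 calls of 12 with a median of 0.04, the largest ratio being that of Gfap, the filament protein of reactive astrocytes, at 40.2 FPKM in the desipramine group and 28.5 FPKM in the saline group. Oligodendrocyte precursors (0 of 7), ependymal cells (0 of 8), red blood cells (0 of 6) and cytokines (0 of 3) had no called gene, with medians of -0.01, -0.02, -0.01 and 0.18 in that order. In all, 5 of the 37 lists held a called gene, and 8 different called genes were on a list.

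**Figure D3:**
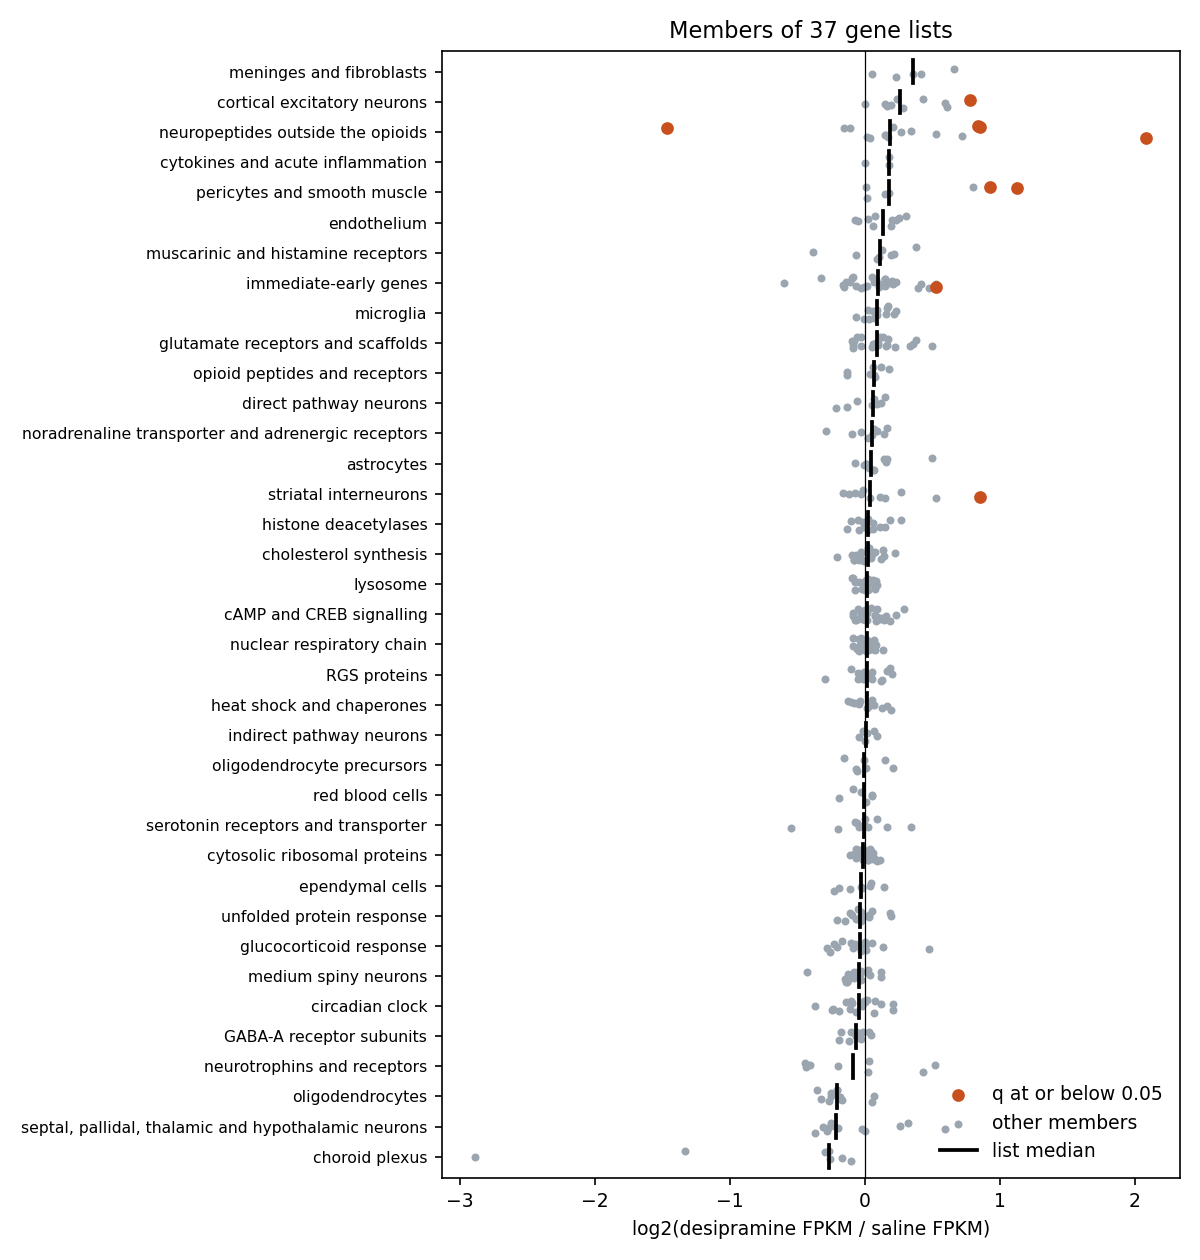
Log2 ratio of desipramine over saline (x axis) for the measured genes of 37 lists (1 list per line, ordered by median); black bars are list medians and coloured points are genes with a deposited q at or below 0.05. Medians run from -0.26 (choroid plexus) to 0.36 (meninges and fibroblasts), and most lists sit close to 0.

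The injury itself was measured as injured saline mice against naive mice, a comparison that uses the same saline group, so the values are only set side by side. Slc17a7 stood at 88.5 FPKM with desipramine, and in the table of the injury comparison at 50.7 FPKM in the injured saline group and 225 FPKM in the naive group. Cck stood at 81.5 FPKM with desipramine, and in that table at 44.3 FPKM in the injured saline group and 152 FPKM in the naive group. Slc30a3 stood at 14.8 FPKM with desipramine, and in that table at 5.21 FPKM in the injured saline group and 19.8 FPKM in the naive group. For these 3 the desipramine level lay between the other groups. Nrn1, Rtn4r, Scube1 and Rprm had log2 ratios of injured saline over naive of -1.51, -1.97, -2.22 and -1.52, in that order, and their desipramine levels also lay between the other groups. Acta2 and Myh11 had log2 ratios of -0.01 and 0.03 in the injury comparison. Oxt stood at 21.8 FPKM with desipramine, and in that table at 5.03 FPKM in the injured saline group and 0.160 FPKM in the naive group. Levels of a group differ slightly between tables, since Cuffdiff scales each table anew: the saline group's median level in the injury table was 0.981 of that in the desipramine table.

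In injured mice labelled knockout, where no sample is shared, 107 of 14023 genes (0.763%) were called for desipramine over saline, 63 higher (0.449%) and 44 lower (0.314%). Across the 13903 genes measured in both tables, the responses had a Pearson correlation of -0.06 and a Spearman correlation of -0.08, over genes that share libraries and are not independent. Called and above the minimum in both tables were 11 genes, which is 47.8% of the 23 called in mice labelled wild type and 10.3% of the 107 called in mice labelled knockout. Regardless of that minimum, 13 of the 23 were called in the knockout table. Of these, 7 had the same direction (Oxt, Acta2, Myh11, Nr2f2, Gnrh1, Gm11942 and Gm6768) and 6 the opposite one (Slc17a7, Slc30a3, Cck, Adcyap1, Nrn1 and Rtn4r). Slc17a7, Slc30a3, Cck and Adcyap1 were thus higher with desipramine under the wild type label and lower under the knockout label. Of the other called peptide genes Oxt was higher under both labels, with a log2 ratio of 4.82 under the knockout label, and Gnrh1 was lower under both, with -2.13 under the knockout label. The Oxt ratio under the knockout label set 14.8 FPKM with desipramine against 0.523 FPKM with saline, a level below the minimum.

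**Figure D4:**
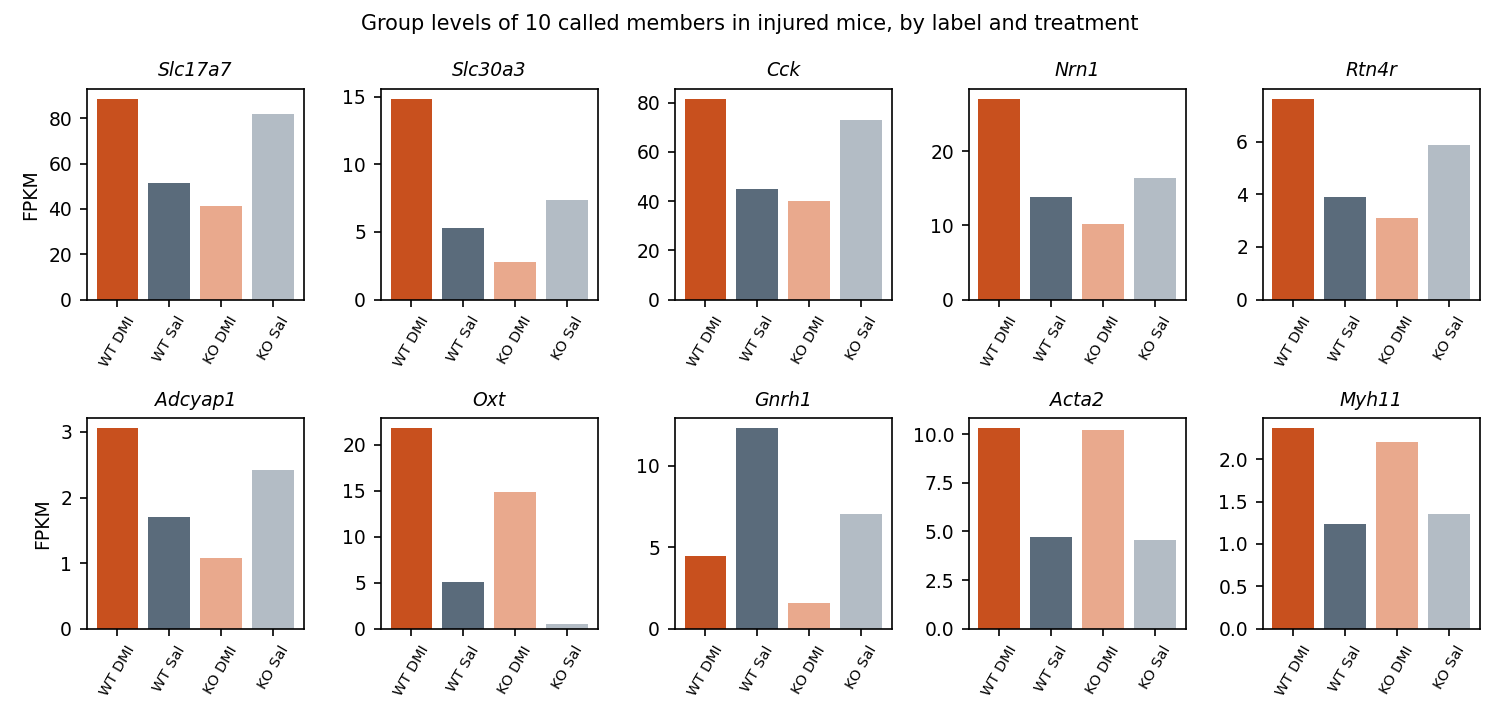
Pooled FPKM (y axis, from 0) of 10 called genes in injured mice: labelled wild type with desipramine (WT DMI) and saline (WT Sal), then labelled knockout with desipramine (KO DMI) and saline (KO Sal), 1 value per group with no error available. The first 6 panels show desipramine above saline under the wild type label and below it under the knockout label; Oxt, Acta2 and Myh11 are above saline under both and Gnrh1 is below it under both.

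The difference between the responses was itself tested for 13827 genes from the recovered standard errors, with a two-sided normal test and Benjamini-Hochberg adjustment; 20 genes passed (0.145%), 13 with the larger ratio under the wild type label (0.094%) and 7 with the larger ratio under the knockout label (0.0506%). All 6 genes with opposite calls passed. They had been picked by the same ratios that this test compares, so their passing is not separate support for a difference. The errors come from the test statistic, and 3 of the 20 (SNORA42, Ptprv and AL589670.1) had no p under 0.05 in either of the authors' deposited tables. With at least 5 FPKM in all 4 groups 7 genes passed, with Nrn1 and Slc17a7 among them; Cck had an adjusted p of 0.0621 from the Cuffdiff errors, and Slc30a3, Rtn4r and Adcyap1 were below that minimum. With each response centred on its median 17 passed, and Cck and Adcyap1 were at an adjusted p of 0.0503 from the Cuffdiff errors. Slc30a3 had a log2 ratio of 1.49 ± 0.30 in mice labelled wild type and -1.39 ± 0.34 in mice labelled knockout, a difference of 2.87 ± 0.45 with an adjusted p of 1.19e-06 from the Cuffdiff errors. Slc17a7 had 0.78 ± 0.28 in mice labelled wild type and -0.996 ± 0.30 in mice labelled knockout, a difference of 1.78 ± 0.41 with an adjusted p of 0.0193 from the Cuffdiff errors. Differences of log2 ratios for Nrn1, Rtn4r, Cck and Adcyap1 were 1.65 ± 0.37, 1.89 ± 0.45, 1.72 ± 0.43 and 2.01 ± 0.50, in that order. The genes called in the same direction, also picked by these ratios, gave no difference that passed where it could be tested. Acta2, for example, had 10.2 FPKM with desipramine and 4.56 FPKM with saline in mice labelled knockout, a log2 ratio of 1.16 against 1.13 in mice labelled wild type. Oxt and Gm6768 were not tested, since with saline under the knockout label they had 0.523 and 0.269 FPKM, below the minimum. Oxt had log2 ratios of 2.09 ± 0.30 under the wild type label and 4.82 ± 0.43 under the knockout label. The 10 markers of cortical excitatory neurons measured in each table, Slc17a7 among them, had a median log2 ratio of 0.26 with 1 called higher under the wild type label, and of -0.39 with 2 called lower under the knockout label; the part of cortical tissue in the difference was not tested.

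**Figure D5:**
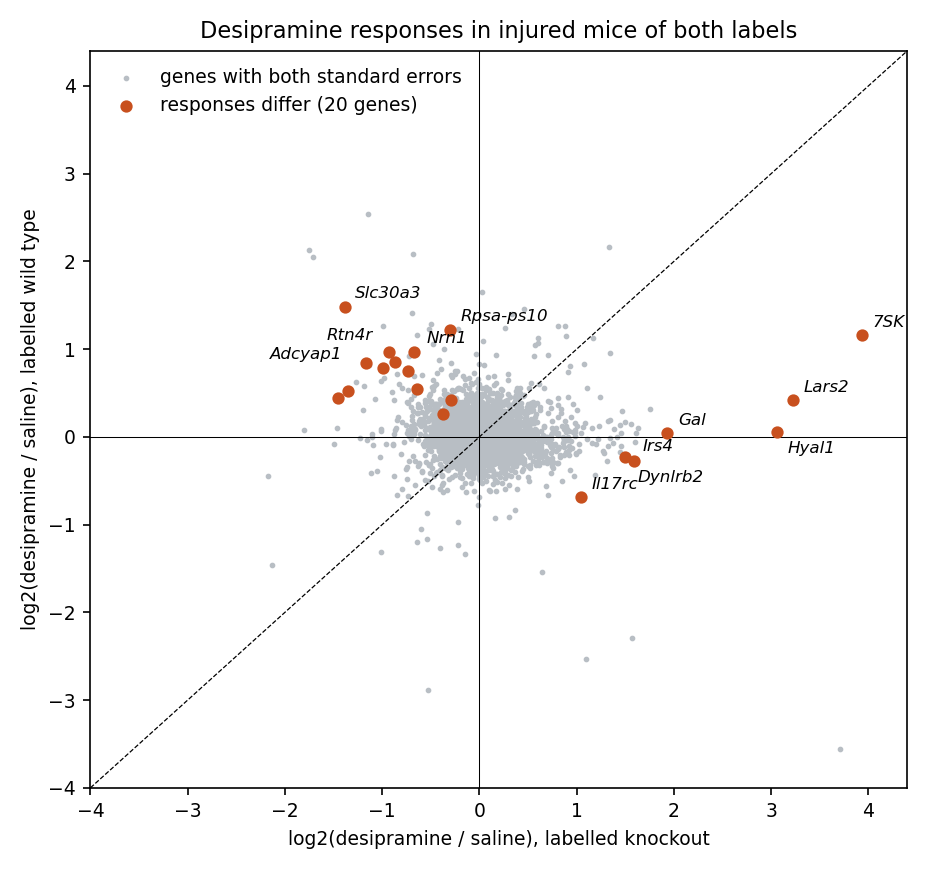
Log2 ratio of desipramine over saline in injured mice labelled wild type (y axis) and labelled knockout (x axis), 1 point per gene with both standard errors; the dashed line marks equal responses. The 20 coloured genes differed between labels at an adjusted p at or below 0.05, with Slc30a3 at the upper left and 7SK and Lars2 at the far right.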

How the data were processed

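Total RNA of mouse nucleus accumbens was prepared as TruSeq libraries and read on an Illumina HiSeq, per the labels' protocols. Per the submitters' processing notes, Bowtie2 2.1.0, TopHat2 2.0.9 and Cuffdiff 2.1.1 were used with the builds mm9 and NCBIM37; their options, the strand setting and the annotation release are not stated. The authors deposited 7 tables, each of 37980 genes and 1 pair of groups. Per the file headers they hold an FPKM value per group, a log2 fold change of the second group over the first, a test statistic (a score) and the p-value and q-value of Cuffdiff, which pools the 3 samples of a group. Depth per sample is unknown, and the p-values measure the spread Cuffdiff estimated between samples that the design text calls biological replicates.

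Computed here, with Python 3.11.15, pandas 2.3.3, NumPy 2.4.6, SciPy 1.17.1 and matplotlib 3.10.9, were log2(desipramine FPKM / saline FPKM) with no pseudocount, its standard error as the deposited log2 fold change over the test statistic, and the normal test of the difference between labels. That test was run on simulated data, drawn as normal with these same standard errors. The simulation therefore cannot show how the test does where the errors are off. The deposited log2 fold change differed from the FPKM ratio by over 0.01 in 29 of 14132 genes, 0 of them called. Genes with status NOTEST (20318), LOWDATA (331), HIDATA (12) or FAIL (3), and 3184 tested genes under 1 FPKM in a group, were left out. The closest to the minimum were, inside it, 9330188P03Rik with 1.06 FPKM in the desipramine group and 1.0002 FPKM in the saline group and Zfp595 with 1.0006 FPKM in the desipramine group and 1.08 FPKM in the saline group. Just outside it were Gm17168 with 1.32 FPKM in the desipramine group and 0.999 FPKM in the saline group and Tsku with 1.12 FPKM in the desipramine group and 0.99968 FPKM in the saline group.

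The genes and lists were chosen with earlier results of these data known. Genes named were the called genes (up to 15 a side by size), up to 4 called or 2 uncalled genes a list, and on each side of the difference the 5 of smallest p; pseudogenes, predicted genes and other list genes were picked with their values in view. Tables held no value per sample, so limma, a replicate block and leaving out samples, planned for that case, were not used.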

Additional observations from a re-analysis of the deposited data

Results flagged for a closer look

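The desipramine responses of mice labelled wild type and labelled knockout differed in 20 genes by a test of the difference itself, with adjusted p from the errors that Cuffdiff's statistic gives. The difference of log2 ratios, labelled wild type minus labelled knockout, was 2.87 for Slc30a3, 1.65 for Nrn1 and 1.52 for Rpsa-ps10. It was 1.87 for A830036E02Rik and 0.71 for the small nucleolar RNA gene SNORA42, whose p in the authors' deposited tables was 0.808 in mice labelled wild type and 0.886 in mice labelled knockout.

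On the other side the differences were those of genes that were called for desipramine in mice labelled knockout, apart from Il17rc. The noncoding RNA gene 7SK, which has many near-identical copies, had -2.78, with 4.73 FPKM in the desipramine group and 2.12 FPKM in the saline group labelled wild type, and 39.0 FPKM in the desipramine group and 2.55 FPKM in the saline group labelled knockout. Lars2, the mitochondrial leucyl-tRNA synthetase, had -2.81, with 31.4 FPKM in the desipramine group and 23.5 FPKM in the saline group labelled wild type, and 182 FPKM in the desipramine group and 19.5 FPKM in the saline group labelled knockout. Irs4, an insulin receptor substrate, had -1.87. Dynlrb2, a dynein light chain of cilia, had -1.72, and Il17rc, a subunit of the interleukin-17 receptor, had -1.73.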

How the results depend on the processing

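The 23 calls rest on p-values that cannot go below 5.00e-05. At a q of 0.01 or less 0 genes passed, against 209 with an unadjusted Cuffdiff p under 0.05. Without the FPKM minimum 35 genes were called, with at least 5 FPKM in both groups 13, and taking a normal p of the statistic 49, of which 9 were among the 23. That last alternative limited to genes with a recovered standard error, added after seeing the data, gave 9, of which 7 were among the 23. Nrn1, with the lowest statistic of the called genes kept before that limit, was not among them. Of 19 called and named genes 12 were lost with the normal p (Slc17a7, Adcyap1, Cck, Nr4a1, Nr2f1, Nr2f2, Rtn4r, Scube1, Rprm, Ptgds, Myh11 and Ldb3) and 0 with adjustment over all 7 tables. The difference between labels passed in 7 genes with at least 5 FPKM in all 4 groups and in 17 with each response centred. A pseudocount of 1 or centring turned the sign of 0 named genes and 0 of the 37 list medians. No cause of these shifts was tested. No paired analysis was possible because the tables hold no value per sample, and for the same reason no sample could be left out. The spread of the test statistic over genes was 0.348 of that of a standard normal, the median standard error was 0.29, and the smallest log2 ratio called was 0.53 in size. Lane, unknown depth and pooled values limit every result.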

Other observations

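Another 12 genes were called in the same comparison but lay below 1 FPKM in a group, making 35 of the 17316 genes tested (0.202%). Higher with desipramine were 10 of them. Myoc (myocilin), a secreted protein that is also on the list of meningeal genes, had 3.22 FPKM in the desipramine group and 0.963 FPKM in the saline group. Slc22a6, an organic anion transporter on the same list, had 0.698 FPKM in the desipramine group and 0.269 FPKM in the saline group. Cyp26b1, which breaks down retinoic acid, had 2.104 FPKM in the desipramine group and 0.763 FPKM in the saline group. Avp, described with Oxt above, Gucy2g, Endou, Capn11, Pappa2, Igfn1 and Igkv19-93 were the others, and Igkv19-93 was listed at 0 in the saline group. Lower were Kcne2, a potassium channel subunit on the choroid plexus list, with 0.161 FPKM in the desipramine group and 0.517 FPKM in the saline group, and Defb11, which was listed at 0 in the desipramine group.

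Pairs of neighbouring genes within 50 kb, each with an unadjusted p under 0.05 and at least 1 of them called, numbered 3. Beside Oxt and Avp, these were Slc17a7 with Dkkl1 on chromosome 7 (31386 bases apart in mm9), at log2 ratios of 0.78 and 1.26, and Gm7120 with 4833420G17Rik on chromosome 13 (1143 bases apart), at -1.24 and -0.53. No share over all neighbouring genes is set beside this count of pairs, so it is a description only.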
